A study of Fukomys damarensis and Heterocephalus glaber and Mus musculus with 160 samples.

Results

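Ppara and Ppargc1a were examined in mouse liver and heart through the peaks of 3 histone marks in a fixed window around each gene. The windows were taken as given, chr15:85730000-85810000 for Ppara (ENSMUSG00000022383.13) and chr5:51445000-51560000 for Ppargc1a (ENSMUSG00000029167.13), on the mouse build GRCm38, and a peak belonged to a window when at least 1 base overlapped it. The 29 mouse lists held 370 peaks in the Ppara window and 185 in the Ppargc1a window, 555 of 1711588 mouse peaks and of 8953087 peaks in all lists of the series.

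PPARα, the product of Ppara, is a nuclear receptor that binds fatty acids and their derivatives and, as a heterodimer with a retinoid X receptor, switches on genes of fatty acid uptake, mitochondrial and peroxisomal oxidation and ketone body synthesis. It is abundant in liver and is also present in heart. PGC-1α, the product of Ppargc1a, binds no DNA itself: it is a coactivator that nuclear receptors, PPARα among them, recruit, and it raises mitochondrial gene expression in heart and muscle and glucose production in the fasted liver. In chromatin, H3K4me3 marks promoters, H3K4me1 marks enhancers and the flanks of promoters, and H3K27ac marks promoters and enhancers that are active. Ppara is transcribed toward higher coordinates and Ppargc1a toward lower coordinates, so the promoter lies near the low end of the first window and near the high end of the second.

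The series compared liver and heart chromatin of 4 rodent species by chromatin immunoprecipitation and sequencing, and only the mouse lists were used. Every mouse was a wild-type C57BL/6J adult male of 2 months, and no animal was treated. Liver had 4 animals (85920, 85921, 85923 and 85924) for each mark, and heart had 6 libraries for H3K4me3, 6 for H3K27ac and 5 for H3K4me1, of which 1 per mark was a pool of 3 animals. The lists come from whole diced tissue, so a larger share of cells with a mark and more of the mark per cell cannot be told apart. Ppargc1a was also a bait in 3 chromosome conformation libraries, all from mole-rats, which are not analysed here.

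List sizes ran from 17431 to 32785 peaks for H3K4me3, from 56871 to 109724 for H3K27ac and from 20521 to 129914 for H3K4me1. The read depth behind the lists is unknown. The library labelled heart 6837 for H3K4me3 was nearest to a list of the other tissue. The share of covered bases it had in common with another list (bases in both divided by bases in either) was highest with a liver library, 0.562 with 85924, against 0.539 for its nearest heart library. This share also depends on how many bases each list covers, and this list covered the most of its mark, 36.3 Mb. The H3K4me3 list of the heart pool covered 35.6 Mb. Its highest share was 0.655 with a heart library and 0.534 with a liver library. The cause of the order seen for the library labelled heart 6837 was not tested, and the small gap is not enough to tell the tissue. The other 28 lists overlapped most with a list of their own tissue, among them the H3K27ac list of heart animal 6837. The heart H3K4me1 list of the pool also stood apart, with 20521 peaks and a highest overlap of 0.107, and it had no peak in either window. H3K4me3 results are given with and without the library labelled heart 6837. Marker genes could not be placed on GRCm38 with the tables used here, so this overlap is the check of the tissue labels.

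The Ppara window carried far more H3K27ac in liver than in heart. Peaks covered 32.6, 38.6, 47.4 and 45.1 kb of the 80 kb window in the 4 liver libraries. In heart they covered 3.11 kb in 17_36584, 6.41 in 33018, 6.97 in 6837, 5.44 in 6839, 10.5 in 73317 and 2.42 in the pool. Every liver library lay above every heart library, the lowest of liver 85920 at 32.6 kb and the highest of heart 73317 at 10.5 kb. The mean was 40.9 ± 6.71 kb in liver (SD, n = 4) and 5.82 ± 2.93 kb in heart (SD, n = 6), a difference of 35.1 kb and a ratio of 7.04. The exact two-sided permutation test over libraries gave p = 0.00952, the smallest this design allows, and 0.0226 after Benjamini-Hochberg adjustment over 17893 tiles of the genome as wide as the window. Without any 1 of the liver libraries the adjusted p was 0.0534 to 0.0546, with the groups still apart. Such calls were common: 22.3% of tiles were called with liver above heart and 20.7% had liver libraries all above heart libraries. The size was not, since a liver excess at least as large was found in 0.0727% of tiles.

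More peaks and wider peaks both made up that coverage. Liver libraries had 22, 23, 20 and 22 H3K27ac peaks in the Ppara window, and heart libraries had 4, 9, 9, 7, 14 and 6, in the order given above. The exact permutation test gave p = 0.00952 and 0.0332 after adjustment over the tiles, of which 12.6% were called in this direction. The widest peak spanned 6031, 7151, 12575 and 12866 bases in liver, against 658 to 2729 bases in heart. The heart peak of 2729 bases, in 6837, lay mostly beyond the high end of the window. The groups did not overlap, and the same test gave 0.00952, adjusted to 0.0268 in a background of 21.6% of tiles called; without any 1 of the liver libraries it was 0.0620 to 0.0633. The call on the number of peaks was near the threshold: leaving out any liver library, or any heart library but 73317, raised its adjusted p to between 0.0506 and 0.0780.

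**Figure D1:**
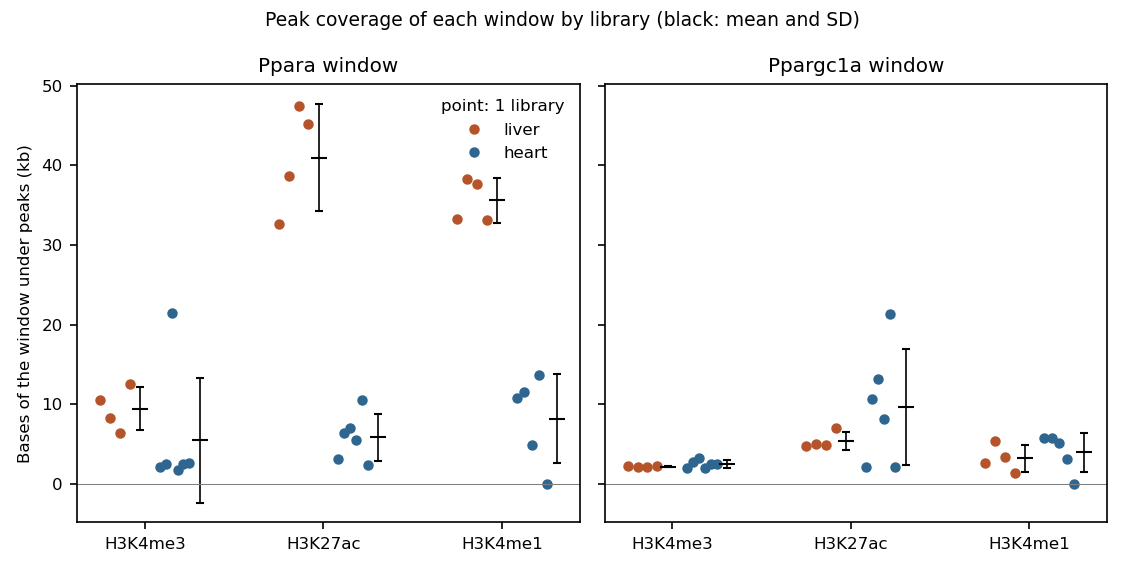
Bases of each window under peaks (kb, vertical axis) by mark, with 1 point per library, liver in orange and heart in blue, and the mean and SD in black beside each group. In the Ppara window all 4 liver libraries lie above all heart libraries for H3K27ac (32.6 to 47.4 kb against 2.42 to 10.5 kb) and H3K4me1; the single high heart point for H3K4me3, at 21.5 kb, is the library labelled heart 6837.

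H3K4me1 showed the same order at Ppara without passing the adjusted threshold. Peaks covered 33.2, 38.3, 37.7 and 33.1 kb in liver, and 10.7 kb in 17_3498, 11.5 in 17_3500, 4.88 in 17_3501, 13.6 in 33017 and 0 in the pool in heart. The groups did not overlap, and the empty pool, being the lowest heart value, has no bearing on that. The difference of 27.4 kb gave an exact permutation p of 0.0159, the smallest possible with 4 and 5 libraries, but an adjusted p of 0.111, and 0% of the 21425 tiles passed. Liver libraries lay above all heart libraries in 13.4% of tiles, and a liver excess at least as large occurred in 0.0700% of them. The widest H3K4me1 peak was 9162 bases in liver 85921 and 2312 bases in heart 33017, the highest value of each tissue.

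At the Ppara promoter, H3K4me3 formed a wide domain in liver and a narrow one in most heart libraries. The bases shared by all 10 H3K4me3 lists lie within chr15:85735103-85736873, and the centre of that span is the zero point of the distances given here for Ppara. The widest peak on it was 6388, 6914, 3448 and 7484 bases in the 4 liver libraries, in the order above. In heart it was 2108 bases in 17_36584, 2530 in 33016, 1483 in 6839, 2189 in 6842 and 2296 in the pool, but 8758 in the library labelled heart 6837. Liver peaks thus reached farther into the gene, ending between 85739003 and 85741430, whereas those 5 heart peaks ended between 85736585 and 85737546.

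Over the whole Ppara window H3K4me3 covered 10.5, 8.28, 6.32 and 12.6 kb in liver and 2.11, 2.53, 1.75, 2.49 and 2.60 kb in those 5 heart libraries. The library labelled heart 6837 had 21.5 kb, more than any liver library. With it, the difference was 3.92 kb with an exact permutation p of 0.429 and an adjusted p of 1; without it, the difference was 7.13 kb, the groups did not overlap and the exact permutation p was 0.0159, adjusted to 0.135. None of the 19470 tiles, 0%, passed the adjusted threshold with liver above heart in the full set, although 12.4% had an unadjusted p below 0.05 in either direction, and in 1.42% all liver libraries exceeded all heart libraries. These shares include the library labelled heart 6837, and no share of tiles was computed for the set without it.

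**Figure D2:**
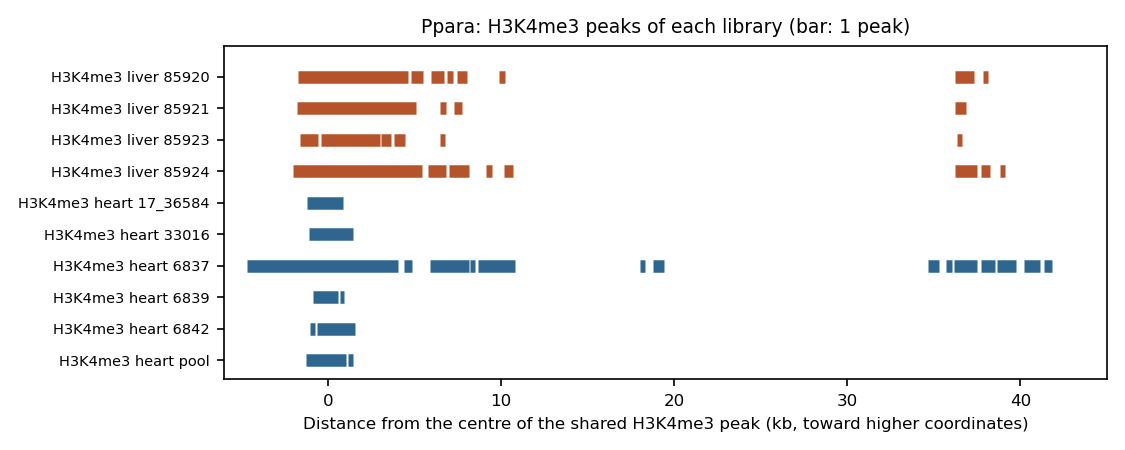
H3K4me3 peaks of each library at the promoter and in the first part of Ppara, 1 row per library and 1 bar per peak, by distance in kb from the centre of the shared peak. Liver libraries have a wide promoter peak and a second group near 36.8 kb; 5 heart libraries have only the narrow promoter peak, and the library labelled heart 6837 has peaks at both places.

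Of the 14 H3K4me3 regions in the Ppara window (peaks of all libraries merged), 6 were found in at least 2 libraries. The promoter region, chr15:85731289-85741497, was present in all 10. A region at chr15:85741776-85744127 and one at chr15:85772123-85773479, centred 36.8 kb into the gene, were each found in 4 of 4 liver libraries and, in heart, only in the library labelled heart 6837. The fold enrichment is the authors' own value for a peak and is used only to rank peaks within a list. At the second of these the strongest peak ranked above 16.5% to 26.3% of its list by fold enrichment in liver and above 62.4% in the library labelled heart 6837. Regions at chr15:85744663-85746763 and chr15:85773695-85774541 were in 2 liver libraries and that library, and chr15:85774655-85775746 was in 1 liver library and that library. No H3K4me3 region of the genome, 0% with more liver and 0% with more heart libraries among 53569, passed Fisher's exact test after adjustment. Of the 14 regions here, 2 had an unadjusted p below 0.05. The share of all regions below that unadjusted cut is not given here.

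H3K27ac regions at Ppara fell into a block at the promoter, shared in part, and liver regions through the gene body. Of 22 regions, 6 were called, all more frequent in liver, each in 4 of 4 liver and 0 of 6 heart libraries (Fisher's exact p = 0.00476, adjusted p = 0.0440). Across the genome 7.09% of 148133 regions were called with more liver libraries and 3.74% with more heart libraries. The widest of the 6 was chr15:85766223-85780016, 13794 bases centred 37.1 kb from the promoter, which holds the second H3K4me3 region of liver. The next were chr15:85762315-85764261, chr15:85751815-85753515 and chr15:85749463-85751127, from 1665 to 1947 bases wide. The 6 calls rest on every library: leaving out any 1 of the 10 left none, because the smallest Fisher p then no longer passed adjustment.

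The promoter region chr15:85730715-85749196 was in all 10 libraries, but it was filled to different lengths: within 2.5 kb of the zero point, H3K27ac covered 4.71 to 4.87 kb in liver and 1.98 to 3.75 kb in heart. Beyond that distance it covered 27.9 to 42.6 kb of the window in liver and 0.326 to 6.87 kb in heart. The regions chr15:85785780-85789176 and chr15:85753784-85756553 were in 4 liver libraries each and in 2 and 3 heart libraries. The region chr15:85809909-85812648, which crosses the far edge of the window, was in all 10. Its peaks reached into the window only in heart 6837, 6839 and 73317. Outside the rule for named regions, chr15:85798941-85799726 was picked after its values were seen: it was in 0 of 4 liver and 5 of 6 heart libraries (Fisher's exact p = 0.0476, adjusted p = 0.267).

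Base by base, 30.3 kb of the Ppara window had H3K27ac in a majority of the liver libraries (at least 3 of 4) and in no heart library, and 0.322 kb had the reverse, at least 4 of 6 heart libraries and no liver library. These are 57.2% and 0.607% of the 53009 bases covered in any library, against 15.7% and 11.5% of all such bases in the genome. For H3K4me1, where a majority in heart was at least 3 of 5 with the empty pool counted, the shares were 31.0% and 1.12%, against 10.6% and 8.81% in the genome. The longest single stretch of liver H3K27ac, 7151 bases at chr15:85771485-85778635, had no heart peak in any of 6 libraries. For H3K4me3 the shares at Ppara were 2.74% and 0%, against 1.93% and 3.97% in the genome, and the library labelled heart 6837 enters them.

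**Figure D3:**
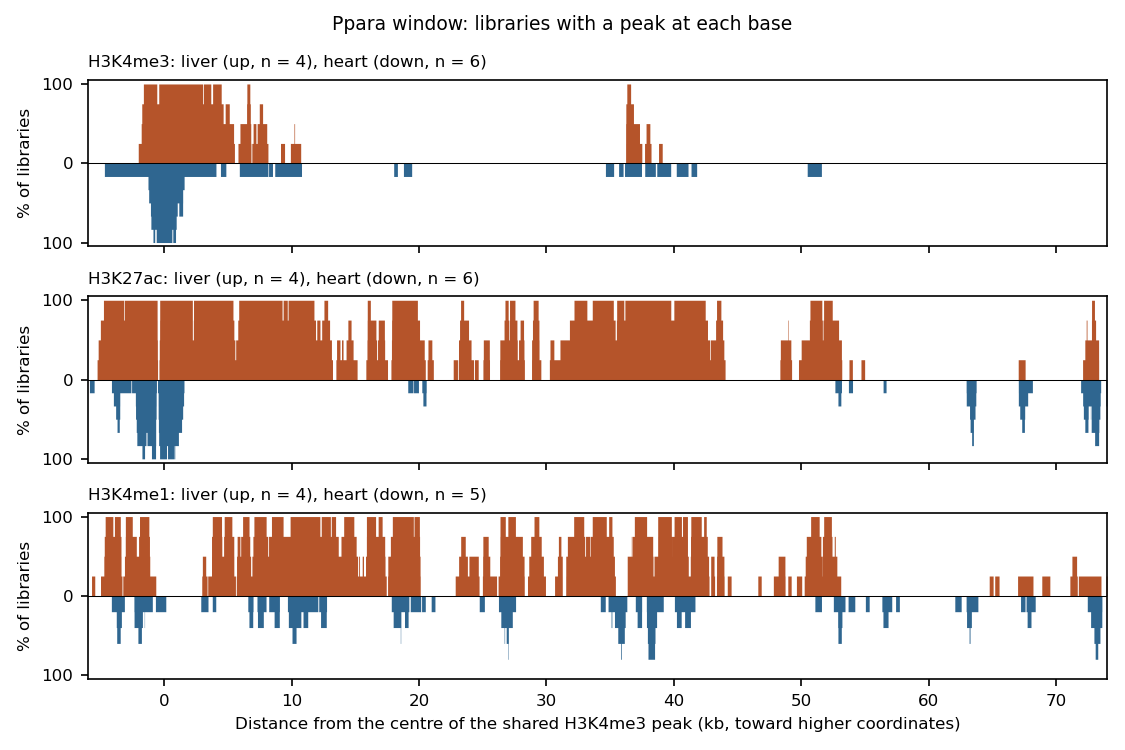
Percent of libraries with a peak at each base of the Ppara window, liver upward in orange and heart downward in blue, for 3 marks, by distance in kb from the centre of the shared H3K4me3 peak. Liver H3K27ac and H3K4me1 peaks run through much of the window, whereas heart H3K27ac is found in all 6 libraries only near 0.

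H3K4me1 and H3K27ac lay together along liver Ppara. Counting bases with peaks in at least 2 libraries, 28.9 kb of the liver window had both marks and no H3K4me3, 10.4 kb had H3K27ac with H3K4me3 and 3.88 kb had H3K4me1 alone. In heart the same classes held 2.26, 2.64 and 8.75 kb. By this count H3K4me1 alone was the largest class in heart and H3K27ac with H3K4me1 the largest in liver. The cut of 2 libraries is not alike in the tissues, being of 4 in liver and of 5 or 6 in heart. In heart these 2 marks also came from different animals except for the pool, which had no H3K4me1 peak here. The widest H3K4me1 regions of the window were shared as regions, whereas 14 of its 35 regions were found in 1 library only. Of the 8 widest regions found in every liver library, 8 had a peak in at least 1 heart library. Among them were chr15:85741644-85753414 and chr15:85772334-85778755 with 4 heart libraries each. Of the 35 H3K4me1 regions, 1 was in every liver and no heart library, chr15:85764505-85765915, with an exact Fisher p of 0.00794 and an adjusted p of 0.130. The share of all H3K4me1 regions with that pattern is not given here, so this count has no background. In the genome 0% of 198277 H3K4me1 regions were called with more liver and 0% with more heart libraries.

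Within each list, the Ppara promoter ranked high for H3K27ac and from the middle upward for H3K4me3. The strongest H3K27ac peak on the promoter was above 95.9% to 99.3% of the peaks of its list in liver and above 85.3% to 97.1% in heart. For H3K4me3 the promoter peak was above 59.3% to 85.0% in liver and 45.8% to 82.0% in heart. H3K4me1 was missing over the promoter itself in 3 of 4 liver and 4 of 5 heart lists.

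The Ppargc1a window had less of each mark than the Ppara window in liver, and its tissue difference in coverage did not pass the test for any mark. Its mean coverage was above that of the median tile of its width for every mark and tissue, for H3K27ac 5.37 kb against 1.65 kb in liver and 9.60 kb against 1.99 kb in heart. H3K4me3 formed 1 promoter peak, and the bases shared by all 10 lists are chr5:51551930-51553839, whose centre is the zero point of distances for this gene. The peak was 2251, 2109, 2073 and 2196 bases wide in liver and 1941, 2529, 2867, 1987, 1958 and 2545 bases in heart, where the library labelled heart 6837 had the 2867. The widths overlapped, and this is the 1 of 2 H3K4me3 regions of the window found in more than 1 library. The other was a peak of the library labelled heart 6837 alone, at chr5:51528046-51528464.

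H3K4me3 coverage of the Ppargc1a window was 2.16 ± 0.0811 kb in liver (SD, n = 4) and 2.50 ± 0.498 kb in heart (SD, n = 6). The difference of -0.34 kb, liver minus heart, gave an exact permutation p of 0.181 and an adjusted p of 0.875; without the library labelled heart 6837 it was -0.18 kb with an exact p of 0.302, adjusted to 0.960. Of 15814 tiles of this width, 0% passed with heart above liver and 5.46% had all heart libraries above all liver libraries. The promoter peak's fold enrichment was above 48.8% to 56.1% of its list in liver and 44.1% to 80.0% in heart.

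H3K27ac at Ppargc1a was even in liver and uneven in heart. It covered 4.70, 4.95, 4.84 and 6.98 kb in liver, and 2.17 kb in 17_36584, 10.6 in 33018, 13.2 in 6837, 8.13 in 6839, 21.4 in 73317 and 2.13 in the pool in heart. Of the heart libraries, 4 lay above all liver libraries and 2 lay below them all. The mean was 5.37 ± 1.08 kb in liver (SD, n = 4) and 9.60 ± 7.29 kb in heart (SD, n = 6). The difference of -4.23 kb, liver minus heart, was within the spread of the heart libraries (exact permutation p = 0.267, adjusted p = 0.367), in a genome where 24.2% of 13685 tiles were called with heart above liver and 22% had no overlap in that direction.

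Whether list size bears on the uneven heart coverage was not tested. Library 73317, with the most peaks in its list (109724), had the highest coverage of Ppargc1a, and the pool, with the next largest list (104892), had the lowest. Over the genome the list of 73317 covered 92.8 Mb and that of the pool 63.8 Mb. Without 73317 the difference was -1.88 kb. The share of the window covered in heart ran from 1.85% to 18.6%, and in liver from 4.08% to 6.07%.

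Liver and heart carried H3K27ac at neighbouring sites inside Ppargc1a. The region chr5:51527292-51532737 was found in 4 of 4 liver and 5 of 6 heart libraries, but most heart peaks in it lay at higher coordinates than the liver peaks. Liver peaks of 1355 to 1737 bases started between 51527292 and 51527474 and ended between 51528828 and 51529028, with fold enrichments above 80.7% to 85.2% of the peaks of their lists. In heart, H3K27ac peaks began at 51529235 in 17_36584, 51529351 in 6837 and 51529437 in 6839, past the ends of the liver peaks, and the pool had none. The peaks that began at 51528887 in 73317 and 51528899 in 33018 overlapped the last bases of the liver peaks of 85923 and 85924, and 73317 also had a peak at chr5:51527883-51528305, within the liver site. The strongest peak of the region stood above 82.7% of its list in 73317, 66.9% in 33018, 27.5% in 17_36584, 75.6% in 6837 and 70.8% in 6839.

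Of the liver site, the stretches chr5:51527445-51527882 and chr5:51528306-51528863, had no heart H3K27ac peak in any library. The 423-base peak of heart 73317 lay between them. The heart stretch chr5:51529351-51529615 was covered in up to 5 heart libraries and no liver library. H3K4me1 marked the liver site too: the region chr5:51527051-51528931 was in 4 of 4 liver libraries and in 1 of 5 heart libraries (Fisher's exact p = 0.0476, adjusted p = 0.302). The only H3K4me3 peak of the gene body, that of the library labelled heart 6837, also fell on the liver site.

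**Figure D4:**
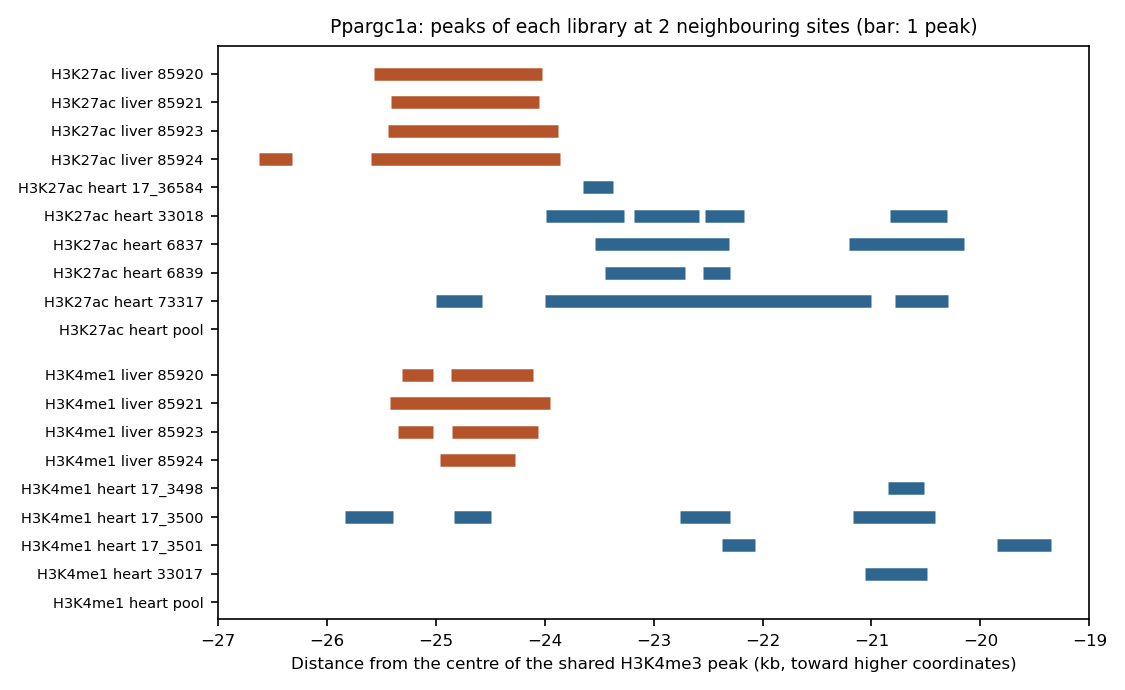
H3K27ac and H3K4me1 peaks of each library around 2 neighbouring sites of Ppargc1a, by distance in kb from the centre of the shared H3K4me3 peak, 1 row per library and 1 bar per peak. Liver bars (orange) of 4 libraries stack near -24.7 kb, and heart H3K27ac bars (blue) of 5 libraries lie mainly to their right.

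At the Ppargc1a promoter, a single unbroken H3K27ac peak reached farther upstream than in liver in 3 of 6 heart libraries. The region chr5:51551368-51557389 was in all 10 libraries. The promoter peak spanned 2338, 2482, 2224 and 2357 bases in liver and ended between 51553862 and 51554109. In heart it spanned 4206 bases in 33018, 4179 in 6837 and 4570 in 73317, ending between 51555787 and 51556105, but only 1001 in 17_36584, 1949 in 6839 and 1350 in the pool. Separate peaks lay upstream in the other 3, up to 51556471 in 6839, 51555002 in the pool and 51554164 in 17_36584. The stretch chr5:51554670-51555338 was covered in up to 5 heart libraries and in no liver library.

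Further heart H3K27ac regions of Ppargc1a lay on both sides of the promoter and far into the gene. Counted in a majority of the heart libraries (at least 4 of 6) and in no liver library, 2.50 kb were covered, against 1.10 kb for the reverse, which are 8.81% and 3.88% of the 28310 bases covered in any library. Both are below the genome's 11.5% and 15.7%. A region at chr5:51477457-51478791, centred at -74.8 kb, was in 4 of 6 heart and 0 of 4 liver libraries, and chr5:51549866-51551295, centred at -2.30 kb, was in 5 of 6 and 0 of 4; both were picked after their values were seen. The region chr5:51536175-51538199 was in 4 liver and 3 heart libraries. None of the 29 H3K27ac regions was called, and 1 had an unadjusted Fisher p below 0.05, a cut for which the share of all regions is not given here.

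**Figure D5:**
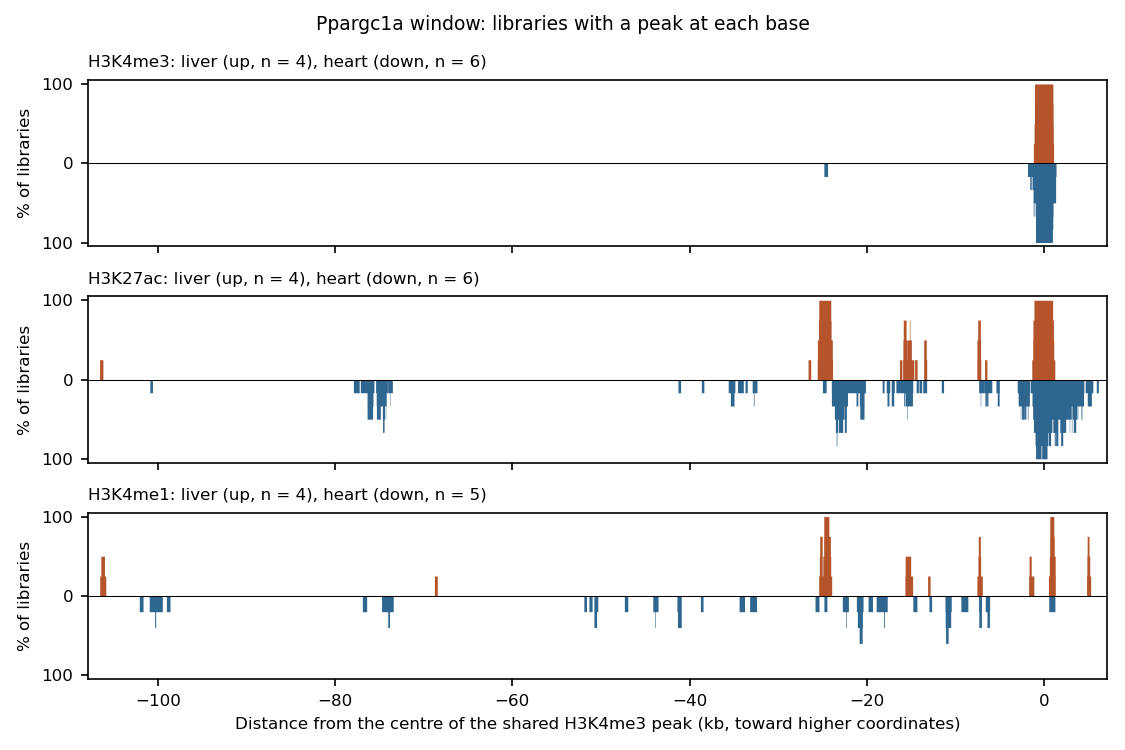
Percent of libraries with a peak at each base of the Ppargc1a window, liver upward in orange and heart downward in blue, for 3 marks, by distance in kb from the centre of the shared H3K4me3 peak. Apart from the promoter at 0, the liver site near -24.7 kb is the only place where all 4 liver libraries have H3K27ac.

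H3K4me1 covered little of the Ppargc1a window in both tissues. It covered 2.59, 5.42, 3.42 and 1.41 kb in liver and 5.75, 5.81, 5.14, 3.07 and 0 kb in heart. The groups overlapped (difference of -0.74 kb, liver minus heart, exact permutation p = 0.619, adjusted p = 0.828), with 0% of 16011 tiles called with heart above liver and 0.743% without overlap. The value depended on the lists and peaks used: it was 0.24 kb for peaks with a −log10 q of at least 4, and -1.73 kb without the heart pool, which has no peak there. The flank of the promoter at chr5:51553391-51554164 had H3K4me1 in 4 of 4 liver and 1 of 5 heart libraries, with an exact Fisher p of 0.0476 and an adjusted p of 0.302. No base of the window was covered in a majority of the libraries of both tissues.

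Marks in at least 2 libraries were paired differently at Ppargc1a. In liver, 2.17 kb had H3K27ac with H3K4me3, 2.16 kb had H3K27ac with H3K4me1 and 1.37 kb had H3K27ac alone. In heart, H3K27ac alone held 11.1 kb and H3K27ac with H3K4me1 held 0.63 kb. The cut of 2 libraries was again not alike, being of 4 in liver, of 6 for heart H3K27ac and of 5 for heart H3K4me1. The heart H3K4me1 libraries came from other animals than the heart H3K27ac libraries except for the pool, which had no H3K4me1 peak here. The heart classes therefore cannot be set against the liver classes on equal terms.

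The tissue difference itself differed between the genes for H3K27ac and H3K4me1. For each library the percent of the Ppara window covered minus the percent of the Ppargc1a window covered was taken, which sets each library against itself. For H3K27ac this was 36.6, 44.0, 55.1 and 50.4 percentage points in liver and 2.01, -1.21, -2.74, -0.273, -5.41 and 1.17 in heart, so that 4 of 4 liver libraries favoured Ppara and the heart libraries lay on both sides of 0. The means were 46.5 ± 8.01 in liver (SD, n = 4) and -1.08 ± 2.71 in heart (SD, n = 6). The difference of 47.6 percentage points gave an exact permutation p of 0.00952, adjusted over the 3 marks to 0.0238. The adjustment did not extend over the genome. The contrast was not computed for other pairs of windows, so how many pairs differ in this way is not known for any mark.

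For H3K4me1 the same measure was 39.3, 43.2, 44.1 and 40.1 percentage points in liver and 8.40, 9.34, 1.63, 14.3 and 0 in heart. The difference of 34.9 gave an exact permutation p of 0.0159, adjusted to 0.0238, and to 0.0536 without any 1 of the liver libraries. The liver libraries and 2 of the 5 heart libraries have identifiers of 1 series (do), the other 3 heart libraries of another (vl). Within the first series the difference was 34.5 with an exact p of 0.133, the smallest that 4 and 2 libraries allow, and the Ppara coverage difference was 28.8 kb with the same p.

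For H3K4me3 the measure was 11.2, 8.52, 6.10 and 13.8 percentage points in liver. In heart it was 0.947, 0.802, 0.457, 0.929 and 1.03 in 5 libraries and 24.0 in the library labelled heart 6837. The difference was 5.20 with an exact permutation p of 0.333 (adjusted p = 0.333), and 9.06 without that library (exact permutation p = 0.0159, adjusted p = 0.0159).

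Just outside the windows the genes also differed. Within 20 kb beyond the high end of the Ppara window, 4 of 4 liver and 6 of 6 heart libraries had an H3K4me3 peak. The same numbers had an H3K27ac peak there. Beyond the high end of the Ppargc1a window, upstream of its promoter, H3K27ac peaks were in 4 of 6 heart libraries and in 0 of 4 liver libraries. H3K4me3 peaks there were in 1 of 6 heart and 0 of 4 liver libraries. Beyond its low end, H3K27ac peaks were in 2 of 4 liver and 0 of 6 heart libraries. These differences were not tested.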

How the data were processed

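Peaks were called with MACS2, per the submitters' processing notes. No label or file names the MACS2 version, the aligner or the read depth. The heart H3K4me1 list of 33017 carries a 40M tag, whose meaning is not stated. Per the deposited files' names, lists are on GRCm38, 1 per library, each against an input. Each deposited list gives a fold enrichment (a ratio over input) and −log10 p and −log10 q values made by the authors; the lowest −log10 q in each list lay just above the 0.05 threshold. Liver inputs were of the same animals, heart inputs mostly of others. Some heart libraries shared an input: 5 inputs served the 6 H3K4me3 libraries, 5 the 6 H3K27ac libraries and 3 the 5 H3K4me1 libraries. The tests over libraries did not take this sharing into account.

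From these, per library and window, the bases covered, number of peaks and widest peak were computed with NumPy 2.4.6 and SciPy 1.17.1 (Python 3.11.15; tables in pandas 2.3.3). Liver and heart were compared with an exact two-sided permutation test over libraries (p is the smaller tail doubled), Benjamini-Hochberg adjusted over all genome tiles of the window's width that held a peak, with 0.05 as the threshold. Regions (peaks of all libraries merged) were compared by Fisher's exact test, adjusted over all regions. Interval counting and the test were checked on simulated data. Named regions were the H3K4me3 regions found in at least 2 libraries and, for the other marks, regions called or found in every library of a tissue, at most 8 per window. Base-by-base shares, distances and combined marks were added after the data were seen. Members and lists were chosen with earlier results of these data known.

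The number of peaks a list holds depends on depth and input, which limits comparisons of coverage. Alternatives were a stricter −log10 q, equal list sizes, wider windows, share of all covered bases, midpoint counting, library series and leaving out each library. The conformation libraries and 1 library whose species labels disagree were left out.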

Additional observations from a re-analysis of the deposited data

Results flagged for a closer look

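In 36 groups of libraries (a window, mark, tissue and measure), 7 values stood far from the rest of their group; about 1 group in 20 is singled out in this way by chance. Of these, 3 belong to the library labelled heart 6837 for H3K4me3 at Ppara, far above the other 5 heart libraries: 21.497 kb covered, 15 peaks and a widest peak of 8758 bases. Coverage, number and widest peak of a library rest on the same peaks, so these 3 values are not independent. Liver 85924 was high for H3K27ac at Ppargc1a, with 6.975 kb covered and 10 peaks. For H3K4me1 at Ppargc1a, the widest peak of liver 85921 was high at 1470 bases, and that of the heart pool was 0 because it had no peak in the window. The contrast of Ppara with Ppargc1a differed between liver and heart by an exact permutation test for H3K27ac, by 47.6 percentage points, and for H3K4me1, by 34.9 percentage points. The causes were not tested.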

How the results depend on the processing

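No paired analysis was possible because mouse liver and heart libraries came from different animals. The H3K27ac difference at Ppara kept its direction in every alternative run; leaving out each library moved it between 33.0 and 37.9 kb, and without any 1 liver library the adjusted p was 0.0534 to 0.0546, as 3 and 6 libraries allow no p below 0.0238. The H3K4me1 contrast of Ppara with Ppargc1a was between 33.3 and 36.8 percentage points on leaving out each library, with adjusted exact permutation p 0.0536 without any 1 liver library, 34.5 (adjusted p = 0.200) in the do libraries alone, and 35.2 (adjusted p = 0.0857) without the heart pool and the heart list with a 40M tag, an alternative chosen after seeing the data. The H3K4me3 contrast ran from 3.90 to 9.06 on leaving out each library and passed only without the library labelled heart 6837. H3K4me1 coverage of Ppargc1a turned from heart to liver: 0.24 kb at −log10 q of at least 4, 0.38 kb with equal list sizes and 1.68 kb in the do libraries alone; the number of peaks there turned to 3. Toward heart it moved to -1.73 kb and -4.25 peaks without the pool, and to -2.35 kb and -5.67 peaks without the pool and the 40M list, none past the threshold. The H3K27ac peak number at Ppara fell to 10.8 more in liver with the window extended by 20 kb (adjusted exact permutation p = 0.0775). Unknown read depth limits what an absent peak shows.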
